A study of Mus with 6 samples.

Results

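Polyamine synthesis and turnover were examined through 8 genes chosen by name, namely Odc1, Amd1, Srm, Sms, Azin1, Oaz1, Oaz2 and Sat1, all 8 of which were among the 10995 protein-coding genes listed. RNA came from wild-type mouse spleen CD4+ T cells that were naive at the start and were activated for 3 days by antibodies against CD3 at 5 μg/mL and CD28 at 2 μg/mL, with IL-2 added at 100 U/mL. During activation 3 cultures received an antibody that neutralizes VEGF-B, and the controls were 3 cultures with normal goat IgG, each antibody at 1 μg/mL. These are called treated and control libraries. No source used here says that the 3 libraries of a group came from separate mice, so the p-values measure the spread between these samples, which may be technical. Values were read as FPKM, read fragments per length of transcript and per read total of a library, although their unit is not named. They carry no read depth. In bulk RNA a smaller share of cells that make a transcript and less of it per cell cannot be told apart.

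Polyamines are small, positively charged molecules that bind nucleic acids and are made in large amounts by dividing cells, activated T cells among them. Ornithine decarboxylase (Odc1) makes putrescine from ornithine, and S-adenosylmethionine decarboxylase (Amd1) makes the aminopropyl donor with which spermidine synthase (Srm) and spermine synthase (Sms) build spermidine and then spermine. Antizymes (Oaz1, Oaz2) bind ornithine decarboxylase and send it to the proteasome, antizyme inhibitor (Azin1) draws antizyme away from it, and spermidine/spermine acetyltransferase (Sat1) marks polyamines for export or breakdown. Antizyme protein is made only when ribosomes shift frame on its mRNA in response to polyamines, so mRNA levels alone do not measure it.

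The genes of the aminopropyl donor and of the synthases that use it (Amd1, Srm and Sms) and the antizyme inhibitor gene Azin1 fell with anti–VEGF-B, by 23% to 31% in mean FPKM. These were 4 of the 8 genes at an adjusted p under 0.05 in limma, where 23.8% of the 8816 genes tested were called lower and 4.87% higher. In 5 of the 8 genes, the same 4 and Odc1, every anti–VEGF-B library was lower than every IgG library, which held for 38.5% of all genes tested. The median log2 fold change was -0.34 over the 8 genes and -0.15 over all genes tested. Log2 fold changes are differences of mean log2(FPKM + 1) and understate the change of low genes. At an unadjusted p under 0.05 together with a log2 fold change beyond 0.5 in size, limits past which 11.3% of all genes tested were lower and 1.40% higher, limma called 0 of the 8, with 5 lower at an unadjusted p under 0.05 alone, as were 35.2% of all genes tested (7.96% were higher). The fall of Amd1 was called in every fit that left out 1 library, and those of Srm, Sms and Azin1 were each lost in 4 of the 6 such fits.

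The libraries had the profile of activated helper T cells, with all 9 T cell genes looked for present (summed level 469 to 520 FPKM with anti–VEGF-B and 497 to 588 with IgG). Of these 9 genes, 3 were called lower, beside 23.8% of all genes tested. Genes of activated T cells summed to 264 to 294 FPKM with anti–VEGF-B and 345 to 434 with IgG. Of these 5 genes, 3 were called lower, beside the same 23.8%. Among them the proliferation gene Mki67 was at 1.95, 2.28 and 2.04 FPKM in the treated libraries and at 6.40, 9.54 and 7.13 in the controls. Its log2 fold change was -1.48 (limma adjusted p = 0.0028), a larger fall than that of any of the 8 polyamine genes. So was that of Il2ra, from a mean of 117 to 58.3 FPKM (-0.97, limma adjusted p = 0.0066). Icos was also called (-0.29, limma adjusted p = 0.0236), and Cd44 and Tnfrsf4 did not pass. Of the CD8 T cell genes, Cd8a was at most 0.182 FPKM and Cd8b1 was at 2.27 to 4.51 in the 6 libraries. The B cell gene Cd79b was at most 1.34. The monocyte and macrophage genes Lyz2, Csf1r and Cd14 summed to 3.95 to 5.11 FPKM with anti–VEGF-B and to 4.60 to 19.8 with IgG, the highest being control replicate 3. The part of these markers in the changes below was not tested. Without control replicate 3, limma still called Amd1, Srm and Sms lower but not Azin1. At an unadjusted p under 0.05 in that fit, 5 of the 8 were lower, beside 32.6% of all genes tested.

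Per length, Sat1 was the most abundant of the 8 transcripts in both groups, at 90.6 ± 7.67 FPKM with IgG (SD, n = 3, as for all means below). With IgG the order went on with Oaz1, Odc1 and Amd1, whose neighbours overlapped in range. Azin1 and Srm followed and overlapped each other, then Sms and Oaz2, which stood apart from their neighbours. With anti–VEGF-B the ranges of Oaz1 and Odc1 no longer overlapped, whereas Srm overlapped with both Azin1 and Sms, and Sms with Oaz2.

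**Figure D1:**
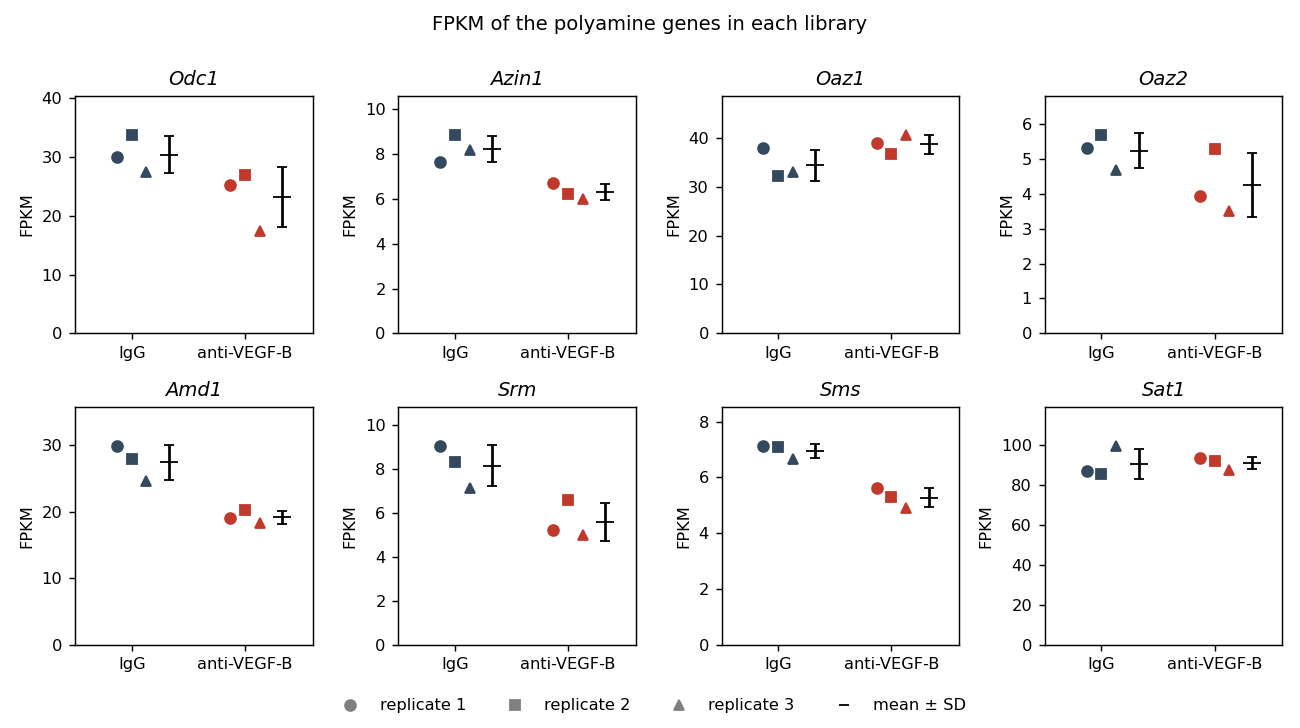
FPKM of each polyamine gene in the 3 IgG and the 3 anti–VEGF-B libraries, with replicate numbers as symbols and black bars for mean ± SD. The groups stand apart for Odc1, Azin1, Amd1, Srm and Sms, and overlap for Oaz1, Oaz2 and Sat1.

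Odc1 (ENSMUSG00000011179.8, chromosome 12 of GRCm38, 17544794 to 17551505, plus strand), the gene of the enzyme that commits ornithine to polyamines, was at 25.3, 26.9 and 17.4 FPKM in treated replicates 1 to 3. The controls were at 30.0, 33.7 and 27.5 FPKM. All 3 treated values lay under the controls, but treated replicate 2 came within 1 FPKM of control replicate 3, and treated replicate 3 was well below the rest. The means were 23.2 ± 5.07 and 30.4 ± 3.15 FPKM. The log2 fold change was -0.39 (SE 0.151, 95% interval -0.73 to -0.055), and the adjusted p of 0.0763 from limma did not pass the threshold. Without treated replicate 3 the log2 fold change was -0.21 (limma adjusted p = 0.204).

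Amd1 (ENSMUSG00000075232.5, chromosome 10, 40287458 to 40302186, minus strand) showed the clearest fall of the 8 genes. Its FPKM were 19.0, 20.2 and 18.3 with anti–VEGF-B and 29.8, 28.0 and 24.6 with IgG. The lowest control stood above the highest treated library by more than the whole range of the treated libraries. The mean was 19.2 ± 0.994 FPKM in treated and 27.5 ± 2.64 in control libraries, so that it fell by 30.2%. The log2 fold change was -0.49 (SE 0.0900, 95% interval -0.70 to -0.29, limma adjusted p = 0.00848). Over the fits that left out 1 library it ran from -0.57 to -0.43, with adjusted p from 0.0110 to 0.0347.

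Reads of Amd1 may be shared with near copies. The RefSeq gene table for GRCm38 names 7 Amd pseudogenes, and Amd2 (ENSMUSG00000063953.3, chromosome 10, 35708675 to 35711892), a closely similar decarboxylase gene, is listed with its own values. Amd2, a gene named here after its values were seen, was at 2.89, 2.98 and 2.47 FPKM in the treated libraries and at 4.42, 4.31 and 3.74 in the controls. The groups did not overlap, and the log2 fold change was -0.45 (limma adjusted p = 0.0171). It was -0.21 after quantile normalization (adjusted p = 0.141), -0.22 after cyclic loess (0.119) and -0.25 after median centring (0.0909), where the call was lost. Without treated replicate 3 the adjusted p was 0.0705. The ratio of Amd1 to Amd2 FPKM was 6.57 to 7.40 with anti–VEGF-B and 6.48 to 6.75 with IgG. How reads were divided between the pair is uncertain.

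Srm (ENSMUSG00000006442.10, chromosome 4, 148591503 to 148594993, plus strand) encodes spermidine synthase, which adds an aminopropyl group to putrescine. It was at 5.22, 6.60 and 4.97 FPKM in the treated libraries and at 9.03, 8.30 and 7.15 in the controls. Treated replicate 2 was the highest treated library and came closest to the controls. The log2 fold change was -0.48 (SE 0.123, limma adjusted p = 0.0223), and mean FPKM fell by 31.4%. The adjusted p was 0.0264 without control replicate 3 and 0.0251 without treated replicate 2. It did not pass without control replicate 1 (0.0558), control replicate 2 (0.0569), treated replicate 1 (0.0657) or treated replicate 3 (0.0815).

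Sms (ENSMUSG00000071708.11, chromosome X, 157443855 to 157492287, minus strand) encodes spermine synthase, which carries the chain on from spermidine to spermine. Its FPKM were 5.62, 5.29 and 4.92 with anti–VEGF-B and 7.11, 7.08 and 6.66 with IgG. Both groups were narrow and lay a full FPKM apart. The log2 fold change was -0.34 (SE 0.0916, limma adjusted p = 0.0248), and the mean fell by 24.1%. The adjusted p was 0.0502 without control replicate 1, 0.0550 without control replicate 2, 0.0606 without treated replicate 2 and 0.0982 without treated replicate 3. A pseudogene, Sms-ps, is named in the RefSeq table, and how its reads were assigned is not given in the sources used here.

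Azin1 (ENSMUSG00000037458.15, chromosome 15, 38487427 to 38519266, minus strand) encodes antizyme inhibitor, a relative of ornithine decarboxylase that binds antizyme without making putrescine. It was at 6.70, 6.20 and 6.01 FPKM in the treated libraries and at 7.66, 8.85 and 8.17 in the controls. The groups did not overlap, and the mean fell by 23.4%. The log2 fold change was -0.34 (SE 0.0931, limma adjusted p = 0.0277). Its adjusted p was 0.0669 without control replicate 3, 0.0711 without treated replicate 2, 0.0714 without control replicate 2 and 0.10 without treated replicate 3.

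The antizyme genes did not pass the test. Oaz1 (ENSMUSG00000035242.15, chromosome 10, 80826656 to 80829290, plus strand), the more abundant antizyme gene, was at 38.9, 36.7 and 40.5 FPKM in the treated libraries and at 38.0, 32.2 and 32.9 in the controls. Control replicate 1 reached into the treated range. Its log2 fold change was 0.17 (95% interval -0.023 to 0.36, limma adjusted p = 0.158). Oaz2 (ENSMUSG00000040652.16, chromosome 9, 65668001 to 65690300, plus strand) was at 3.94, 5.29 and 3.53 FPKM in the treated libraries and at 5.33, 5.69 and 4.70 in the controls. Here treated replicate 2 lay among the controls, and the log2 fold change was -0.26 (95% interval -0.57 to 0.046, limma adjusted p = 0.170). Each has a pseudogene, Oaz1-ps and Oaz2-ps, in the RefSeq table, so reads may have been divided there too.

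Sat1 (ENSMUSG00000025283.15, chromosome X, 155213132 to 155216449, minus strand), the acetyltransferase gene of polyamine turnover, was at 93.5, 92.3 and 87.4 FPKM in the treated libraries and at 86.9, 85.4 and 99.4 in the controls. The 3 treated values lay inside the range of the controls, of which control replicate 3 was the highest. With the values as deposited the log2 fold change was 0.011, with a 95% interval of -0.17 to 0.19 (limma adjusted p = 0.929). Its sign turned after quantile normalization (-0.034) and cyclic loess (-0.029). After median centring the log2 fold change was 0.21 (limma adjusted p = 0.143), above that interval.

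**Figure D2:**
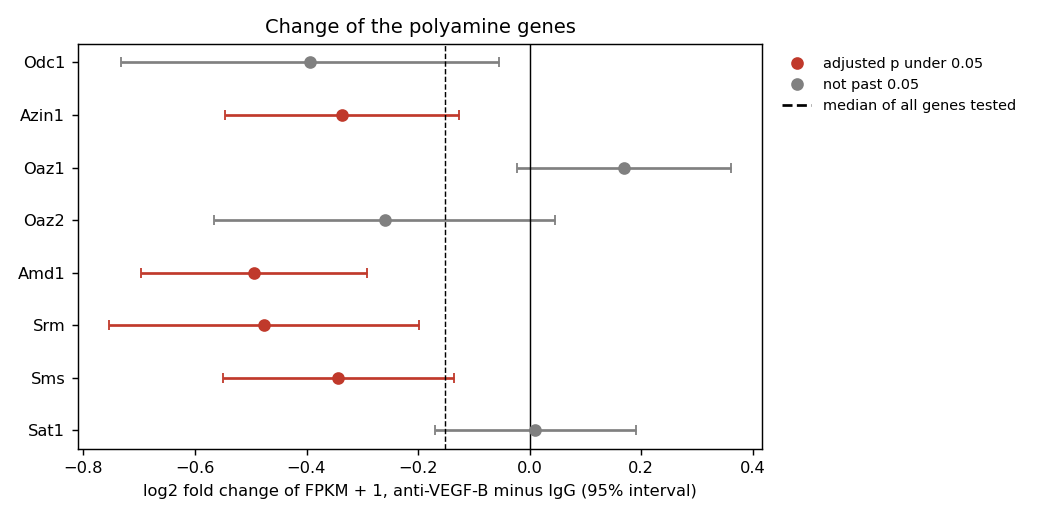
Log2 fold change of FPKM + 1 (anti–VEGF-B minus IgG) with its 95% interval for each polyamine gene. Amd1, Srm, Sms and Azin1 are past an adjusted p of 0.05, and the dashed line at -0.15 is the median of all genes tested.

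How far these falls stand out depends on the scaling between libraries, as 71.2% of all genes tested had a log2 fold change under 0. Set against the median over all tested genes, the log2 fold changes were -0.34 for Amd1, -0.32 for Srm, -0.24 for Odc1, -0.19 for Sms and -0.18 for Azin1. On this relative scale Oaz2 was at -0.11, Sat1 at 0.16 and Oaz1 at 0.32. Amd1 was the 1 gene of the 8 called after quantile normalization (-0.41, limma adjusted p = 0.0163), after cyclic loess (-0.42, adjusted p = 0.0152) and when scaled to Actb (-0.43, adjusted p = 0.0273). Centring each library on its median left Amd1 at -0.29 (limma adjusted p = 0.0513) and called Oaz1 higher instead (0.37, adjusted p = 0.0392). Under all 4 scalings the log2 fold changes of Odc1, Amd1, Srm, Sms, Azin1 and Oaz2 stayed under 0 and that of Oaz1 above 0. The calls of Srm, Sms and Azin1 were lost under each of the 4, with adjusted p from 0.0618 to 0.118 for Srm, 0.0807 to 0.257 for Sms and 0.0833 to 0.219 for Azin1.

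**Figure D3:**
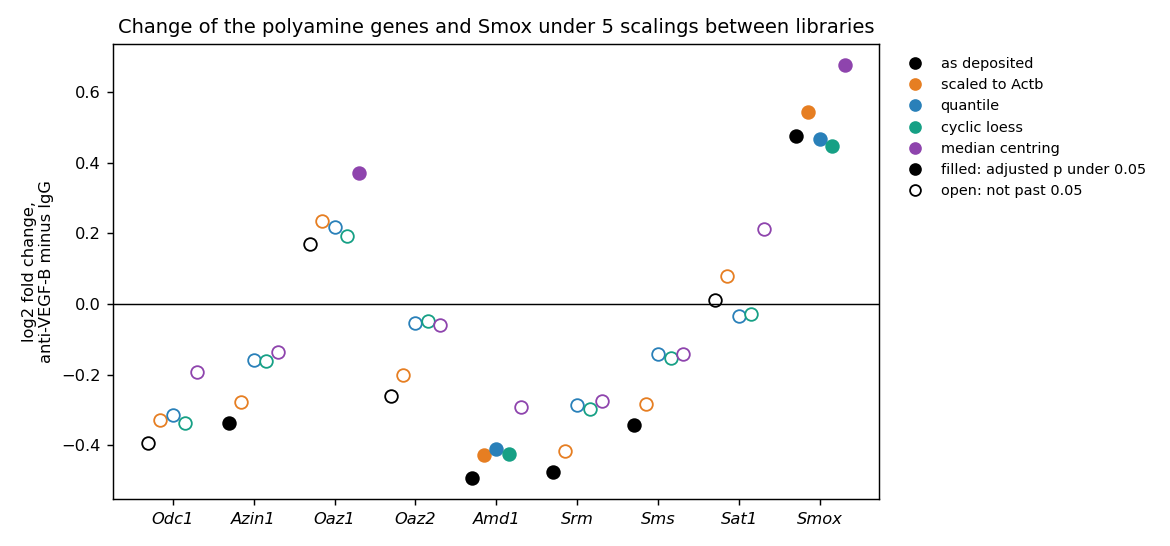
Log2 fold change (anti–VEGF-B minus IgG) of the polyamine genes and of Smox with the values as deposited and under 4 other scalings between libraries; filled points have an adjusted p under 0.05. Amd1 keeps its call except after median centring, and Smox lies above 0 and is called in each.

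Ratios of a pair of genes within the same library do not depend on a scale factor of that library, and 7 pairs were compared. The ratio of Odc1 to its inhibitor Oaz1 was 0.650, 0.734 and 0.430 in the treated libraries and 0.790, 1.05 and 0.835 in the controls. All 3 treated ratios were lower, with geometric means of 0.590 and 0.884. The mean log2 ratio was -0.76 ± 0.404 with anti–VEGF-B and -0.18 ± 0.215 with IgG, a difference of -0.58 (two-sided exact permutation test, p = 0.1, which is the lowest p possible with 3 against 3, and 0.35 after Benjamini-Hochberg adjustment over the 7 pairs). Without treated replicate 3 the difference was -0.36. The ratio of Azin1 to Oaz1 was 0.172, 0.169 and 0.148 with anti–VEGF-B and 0.202, 0.275 and 0.248 with IgG. Again the groups did not overlap, and the log2 difference was -0.56 (exact permutation test, p = 0.1, adjusted 0.35).

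Among the other 5 pairs the groups overlapped. The log2 ratio of Odc1 to Sat1 differed by -0.42 (exact permutation test, p = 0.2, adjusted 0.467), with plain ratios of 0.199 to 0.292 in treated and 0.277 to 0.395 in control libraries. Odc1 and its relative Azin1 changed by similar amounts, with geometric mean ratios of 3.62 and 3.69 and a log2 difference of -0.027. The log2 differences were -0.091 for Odc1 to Oaz2, 0.11 for Odc1 to Amd1 and -0.15 for Srm to Sms (exact permutation tests, p from 0.4 to 0.8 over these 4 pairs). With 3 libraries a group, no pair could reach a p under 0.05.

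**Figure D4:**
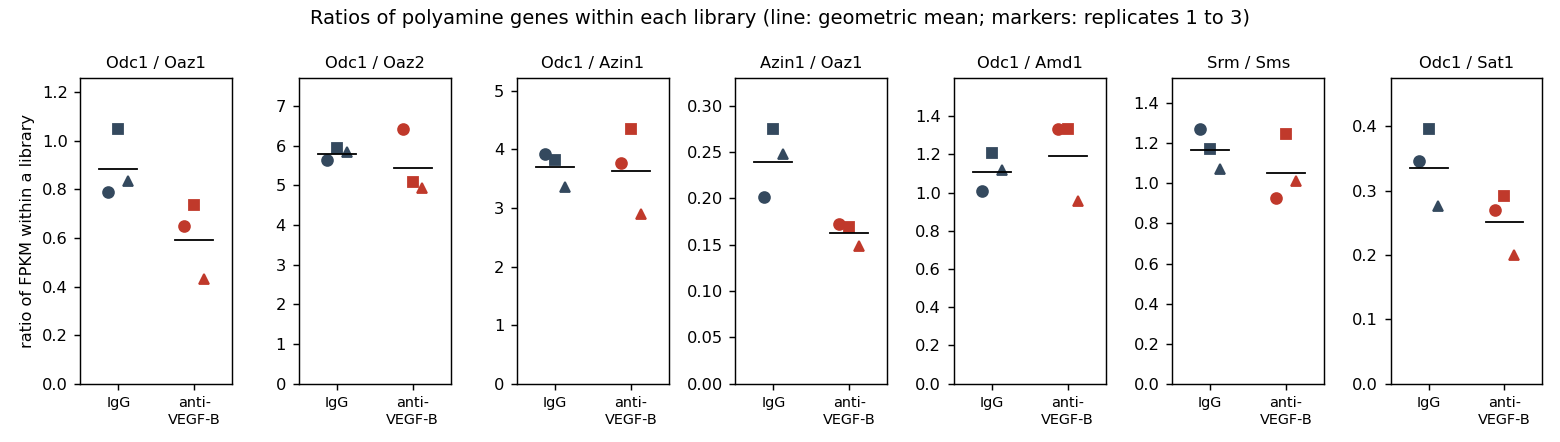
Ratio of FPKM within each library for 7 pairs of polyamine genes, with 3 IgG (dark) and 3 anti–VEGF-B (red) libraries and the geometric mean as a line. The ratios of Odc1 to Oaz1 and of Azin1 to Oaz1 are lower in every anti–VEGF-B library.

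Around these 8 genes, 5 lists of 45 genes of neighbouring steps were drawn up, of which 28 were listed and 25 tested. Of the 25, limma called 7 lower and 3 higher, beside 23.8% and 4.87% of all genes tested, and the median log2 fold change was -0.072 against -0.15. This balance shifted under other scalings, as did that of all 8816 genes tested (2099 lower and 429 higher as deposited). Quantile normalization gave 3 lower and 5 higher, beside 913 and 880 of all genes tested. Cyclic loess gave 3 and 5 beside 938 and 852, and median centring 2 and 6 beside 807 and 1365. Scaling to Actb gave 3 in each direction, beside 1309 lower and 365 higher. The lists did not move in 1 direction, and most of their genes (15) did not pass the test.

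The gene of spermine oxidase, Smox, moved opposite to the synthesis genes. This enzyme turns spermine back into spermidine. Smox was at 84.2, 85.7 and 92.4 FPKM in the treated libraries and at 66.2, 56.8 and 64.8 in the controls. Every treated library was higher, with means of 87.4 ± 4.36 and 62.6 ± 5.06 FPKM and a log2 fold change of 0.48 (SE 0.0819, limma adjusted p = 0.00734). The call held in all 6 fits that left out 1 library (adjusted p from 0.0109 to 0.0314) and under all 4 other scalings (log2 fold changes from 0.45 to 0.68). The ratio of Smox to Sms, a pair chosen after the values were seen and therefore not tested, was 15.0, 16.2 and 18.8 with anti–VEGF-B and 9.31, 8.02 and 9.74 with IgG. Paox, an oxidase of acetylated polyamines, was low and did not pass (log2 change -0.072, adjusted p = 0.663). These were the 2 tested genes of the 7 drawn up for further antizyme, inhibitor and breakdown genes.

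The methionine cycle and methionine salvage supply S-adenosylmethionine and recycle the by-product of spermidine and spermine synthesis. A list of 12 genes was drawn up around them, and all 12 were tested. Of these, 4 were called lower and 1 higher, beside 23.8% and 4.87% of all genes tested. The median log2 fold change of the 12 was -0.031. Quantile normalization gave 1 lower and 2 higher, beside 913 and 880 of all 8816 genes tested. Cyclic loess gave 1 and 2 beside 938 and 852, and median centring 1 and 3 beside 807 and 1365. Scaling to Actb gave 2 lower and 1 higher, beside 1309 and 365. Mat2a, the S-adenosylmethionine synthetase gene of most tissues, fell from 9.88 ± 1.15 to 6.70 ± 0.970 FPKM (log2 change -0.50, limma adjusted p = 0.0179). Ahcyl1 (-0.52), the methionine synthase gene Mtr (-0.46) and the salvage gene Adi1 (-0.47) also fell. Enoph1, another salvage enzyme gene, rose from 8.03 ± 0.602 to 11.7 ± 0.274 FPKM (0.49, limma adjusted p = 0.00768). Mtap, which encodes the first enzyme of salvage, had a log2 fold change of -0.029 (95% interval -0.34 to 0.28). Ahcyl1 and Ahcyl2 are named for their likeness to Ahcy, and whether they act in the cycle was not examined. Ahcy itself had a log2 fold change of -0.096 (limma adjusted p = 0.366), with overlapping groups. The calls of Ahcyl1 and Enoph1 held without each library and under the 4 other scalings. Under those scalings Mat2a (limma adjusted p from 0.0538 to 0.0806) and Adi1 (0.0565 to 0.0941) were called in none, and Mtr only when scaled to Actb (0.0258). Those of Mat2a were lost without control replicate 2 (0.0523) or treated replicate 1 (0.0532), those of Adi1 without control replicate 2 (0.0627), treated replicate 1 (0.0674) or 3 (0.0845), and those of Mtr without control replicate 2 (0.0508) or 3 (0.0551) or treated replicate 2 (0.0504) or 3 (0.0598), all adjusted p from limma.

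Among 13 genes of arginine, ornithine and proline supply 5 were tested (median log2 fold change -0.30). Of the 5, limma called 2 lower, beside 23.8% of all genes tested. Aldh18a1, whose enzyme starts proline and ornithine synthesis from glutamate, had the largest fall of all 25 genes, from 6.38 ± 1.58 to 3.24 ± 0.804 FPKM (log2 change -0.79, limma adjusted p = 0.0137). It was -0.67 without treated replicate 3 (limma adjusted p = 0.0516), and the call held under the 4 other scalings (log2 fold changes from -0.74 to -0.58). Oat, the ornithine aminotransferase gene, was at 35.5 ± 1.09 and 42.0 ± 2.76 FPKM (-0.23, limma adjusted p = 0.0460), a call that was lost in each fit without 1 library (0.0504 to 0.148) and under each of the 4 other scalings, with a log2 change of -0.034 after median centring. The arginine transporter gene Slc7a1 was at 19.4 ± 0.553 and 20.4 ± 1.59 FPKM (-0.065, 95% interval -0.25 to 0.12).

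Of 9 transport genes 3 were tested, with a median log2 fold change of -0.32. Atp13a3, a P-type ATPase gene tied to polyamine uptake, fell from 8.15 ± 0.885 to 5.85 ± 0.429 FPKM (log2 change -0.42, limma adjusted p = 0.0206). Its call was lost without control replicate 2 (0.0570), control replicate 3 (0.0596) or treated replicate 3 (0.0796), and under each of the 4 other scalings (limma adjusted p from 0.0504 to 0.0933), with a log2 change of -0.22 after median centring. Slc3a2, the heavy chain of several amino acid transporters, rose from 47.3 ± 3.13 to 59.7 ± 5.47 FPKM (0.33, limma adjusted p = 0.0257), a call lost without control replicate 2 (0.0775) or 3 (0.0643) or treated replicate 1 (0.0781) or 2 (0.0556) and held under the 4 other scalings. Atp13a2 was at -0.32 (limma adjusted p = 0.0812).

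In the hypusine pathway, in which spermidine is used to modify the translation factor eIF5A, 3 of 4 genes were tested. Of these, limma called 0, and 1 was lower at an unadjusted p under 0.05, as were 35.2% of all genes tested. That gene, Eif5a, was at 166 ± 7.57 FPKM in treated and 189 ± 9.04 in control libraries (log2 change -0.18, limma adjusted p = 0.0854). The genes of the modifying enzymes, Dhps (0.075, 95% interval -0.14 to 0.29) and Dohh (0.077, 95% interval -0.13 to 0.29), did not pass either. Scaling changed this. Eif5a was called lower after quantile normalization (-0.26, limma adjusted p = 0.0358) and cyclic loess (-0.25, 0.0286), was at 0.017 after median centring, and was called with the replicate block (adjusted p = 0.0472). Dohh was called higher after quantile normalization (0.28, limma adjusted p = 0.0380), cyclic loess (0.27, 0.0397) and median centring (0.28, 0.0355). A second Dohh record that overlaps it (ENSMUSG00000113262.1) averaged under 1 FPKM and was not tested, and how reads were divided between them is uncertain.

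**Figure D5:**
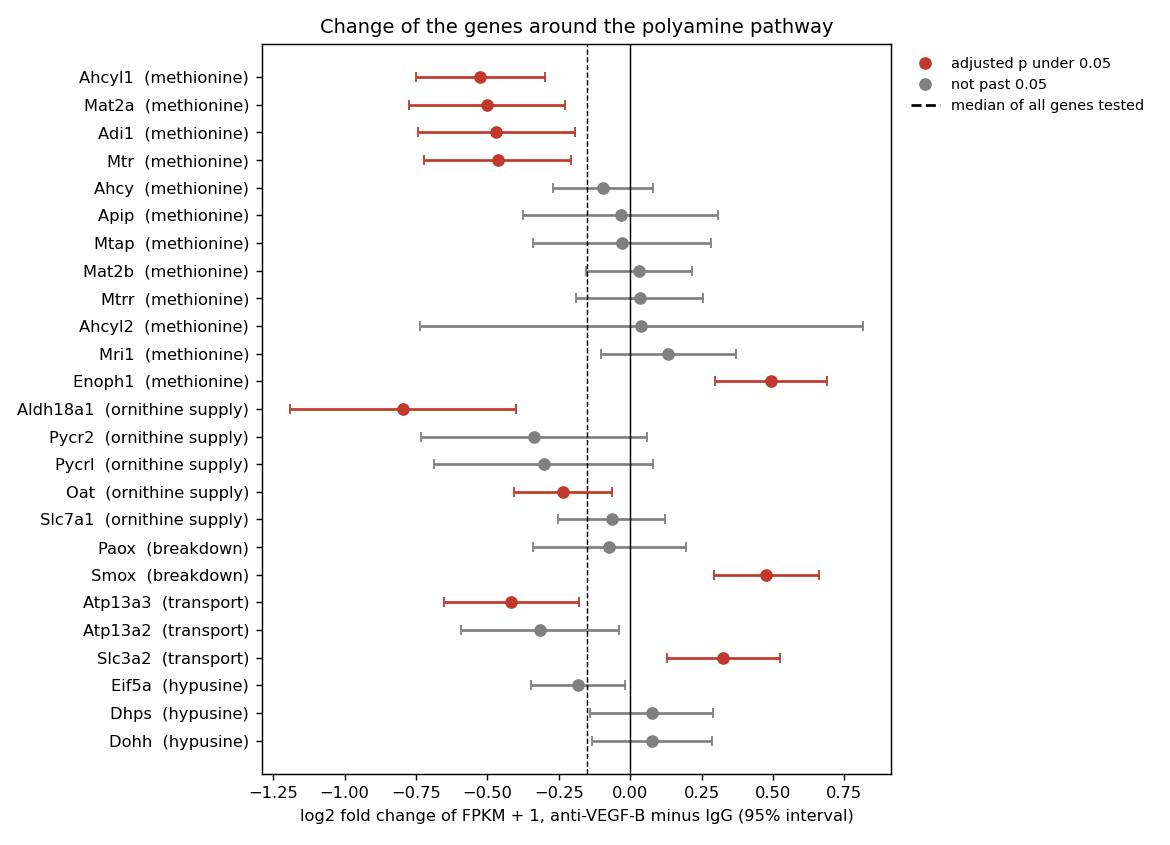
Log2 fold change of FPKM + 1 (anti–VEGF-B minus IgG) with its 95% interval for the 25 tested genes around the polyamine pathway, grouped by list. Red points are past an adjusted p of 0.05, with Aldh18a1 lowest at -0.79 and Enoph1 and Smox highest at 0.49 and 0.48.

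Myc encodes a transcription factor known to act on Odc1. It was at 18.3, 17.7 and 14.0 FPKM in the treated libraries and at 19.3, 30.3 and 21.3 in the controls. The groups did not overlap, control replicate 2 stood well above the rest, and the log2 fold change was -0.46 (limma adjusted p = 0.0581). Without control replicate 1 the adjusted p was 0.0358, and without control replicate 2 the log2 fold change was -0.28 (adjusted p = 0.147).

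The genes with the profile nearest to that of Odc1 over the 6 libraries were Adap1, Manf and Dennd3, with root mean square differences of 0.050, 0.057 and 0.057 between centred log2(FPKM + 1) profiles. In all 3, as in Odc1, treated replicate 3 was the lowest library, which choosing genes by likeness over these same libraries favours.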

How the data were processed

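The authors aligned stranded RNA-Seq reads to GRCm38 with hisat2 (2.1.0), used StringTie (1.3.3), CPAT (1.2.4) and Ballgown (2.10.0), and deposited 1 table of 10995 protein-coding genes. Its unit is not named. The deposited values are not whole numbers and were read as FPKM, with no step between libraries stated. Low values shared no step worth 1 read (at most 1.40% shared a ratio), so depth is unknown, and errors reflect replicate spread alone.

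Genes averaging 1 FPKM or more (8816) entered a limma 3.58.1 fit of log2(FPKM + 1) in R 4.3.3 (empirical Bayes with trend, 6 libraries, no covariate), with Benjamini-Hochberg adjustment over all genes tested and calls at an adjusted p under 0.05. Ratios were tested with exact permutation tests in SciPy 1.17.1. The method was run on simulated data with independent noise and as many genes raised as lowered. That run did not cover a shift between libraries, on which the calls depend. Genes were named if they were among the 8, were called in a neighbouring list, were Myc, were among the 3 nearest to Odc1 or were needed to account for a list. The genes and lists were chosen with earlier results of these data known. All 8 symbols matched the RefSeq table of GRCm38.p6. Promoter and protein sequences were not analysed here.

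Alternatives were 4 other scalings, the pseudocount, the filter, the moderation and its trend, the call rule, the replicate block and leaving out each library.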

Additional observations from a re-analysis of the deposited data

How the results depend on the processing

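Between libraries, quantile normalization gave 913 genes lower and 880 higher over all genes tested and 1 of the 8 polyamine genes lower, cyclic loess gave 938, 852 and 1, scaling to Actb 1309 lower and 1 of the 8, and median centring 807 lower and 1365 higher with 0 of the 8 lower and 1 higher, against 2099, 429, 4 and 0 as reported. At an unadjusted p under 0.05 in limma, the 8 genes then had 2 lower after quantile normalization, 3 after cyclic loess, 5 scaled to Actb and 2 after median centring, beside 18.3%, 18.9%, 26.6% and 15.3% of all genes tested. Keeping genes that average 5 FPKM or more left 4927 genes, of which 989 were lower and 342 higher. The same 4 polyamine genes were called, of 7 in that fit. With no moderation 6 genes were lower and 6 higher, and 0 of the 8 passed. At an unadjusted p under 0.05 in that fit, 4 of the 8 were lower, beside 28.5% of all genes tested. With the limits of an unadjusted p under 0.05 plus a log2 fold change beyond 0.5 in size, 998 were lower and 123 higher, and 0 of the 8 passed, with Amd1 at -0.49.

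Without 1 library, genes called lower ran from 695 to 2071 and higher from 164 to 396, both lowest without treated replicate 3, and the polyamine genes called lower from 1 to 3, with 1 (Amd1) without treated replicate 3 or control replicate 2. The sign of Sat1 turned after quantile normalization (-0.034) and cyclic loess (-0.029). It also turned when treated replicate 1 (-0.0084), control replicate 1 (-0.017) or control replicate 2 (-0.030) was left out, over a range of -0.030 to 0.079. The log2 ratio of Odc1 to Azin1 ran from -0.16 to 0.13 in this way and turned without treated replicate 3 (0.13) or control replicate 1 (0.016). A pseudocount of 0.1, no filter and no trend kept the same 4 polyamine genes.

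Whether same-numbered libraries were paired is not stated. Their deviations from the group means correlated at -0.030, 0.11 and 0.089. Treated replicate 2 correlated best with its same-numbered control, but treated replicate 1 with control replicate 2 (0.057) and treated replicate 3 with control replicate 1 (0.10). With 3 libraries a group these correlations cannot decide whether the libraries were paired. With the replicate block 5 of the 8 were called lower, Odc1 added (adjusted p = 0.0255 from limma), with 2109 genes lower and 469 higher in all. The depth behind the FPKM is unknown, and 3 libraries a group cannot give an exact permutation p under 0.1.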
